A study of Mus musculus with 30 samples.

Results

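Hhex and 7 other genes that encode transcription factors of the hepatocyte (Hnf4a, Foxa2, Foxa3, Onecut1, Nr1h4, Nr0b2 and Cebpa) were followed in RNA-seq of mice that lack myotubularin, the phosphoinositide phosphatase mutated in X-linked myotubular myopathy. The 8 genes were taken by their symbols from the 36103 genes of the count table, and all 8 were found. The table holds 30 libraries from male mice on a 129Pas background, each from a whole organ dissected at 5 weeks, snap-frozen and sequenced from polyA RNA. Mtm1-/y mice carry a constitutive deletion of Mtm1 in every cell, and the controls were their wild-type (WT) littermates, with no other allele or treatment in either group. There were 3 WT and 4 Mtm1-/y livers, 4 and 4 gastrocnemius muscles, 4 and 3 diaphragms, and 4 and 4 hearts, numbered here as the labels number them, so that the Mtm1-/y diaphragms are 1, 2 and 4.

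Hepatocytes are built and maintained by a network of transcription factors that bind one another's genes. Hhex is a homeobox repressor needed for the liver bud and for the formation of endothelium and blood cells. Hnf4a, a nuclear receptor, is regarded as the central regulator of hepatocyte genes, Foxa2 and Foxa3 are forkhead pioneer factors that open liver enhancers, Onecut1 (HNF6) is a cut-homeodomain factor of hepatocytes and bile ducts, and Cebpa drives genes of metabolism in hepatocytes and in adipocytes. Nr1h4 encodes FXR, the bile acid receptor, and Nr0b2 encodes SHP, a repressor that FXR induces and that lowers bile acid synthesis.

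Levels are given in CPM, the share of a library's counts that a gene took, after the libraries of a tissue had been scaled to one another (TMM). Levels of different genes are compared only in TPM, which also divides by gene length. Each log2 fold change sets Mtm1-/y over WT inside 1 tissue and comes with a standard error (SE). The fold change was tested with edgeR's quasi-likelihood test, whose p was adjusted over all genes tested in that tissue. The SE for edgeR was derived from this test, as the absolute log2 fold change over the square root of its F statistic. Calls required both an adjusted p below 0.05 and an absolute log2 fold change above 1, whereas a list member was said to rise or fall at the adjusted p alone. The labels do not tie replicates to separate litters or days, so the p-values measure the spread between these libraries.

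In mm10 (GENCODE M21) Hhex lies at chr19:37434810-37440731 and Nr0b2 at chr4:133553376-133556536, both on the plus strand. Foxa2 lies at chr2:148042877-148046969 (minus strand), on the same chromosome as Hnf4a (chr2:163506808-163572910, plus strand). Cebpa (chr7:35119293-35121928, plus strand) and Foxa3 (chr7:19013284-19023538, minus strand) share chromosome 7, Onecut1 lies at chr9:74861921-74891781 (plus strand) and Nr1h4 at chr10:89454234-89533585 (minus strand). Reads were counted over the exons of each gene.

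The sequence before the transcription start is shown for 4 members: Hhex, Foxa2 and Nr0b2, whose levels differed most clearly between WT and Mtm1-/y livers, and Onecut1, which varied most among livers. The sequences are RefSeq's (GRCm38.p6), written 5′ to 3′ on the strand of the gene, in lower case, with capitals where a window held one of 10 motifs. The motifs, searched on both strands, were a forkhead site (TGTTTAC), its variant form (TGTTTGC), the HNF4 core (AAAGTCC), the nuclear receptor half-site (AGGTCA), the C/EBP site (TTGCNNAA), the HNF1 half-site (GTTAAT), an ONECUT site (ATCAAT), its variant form (ATCGAT), the GATA site (AGATAA) and the E-box (CACGTG).
Hhex, chr19:37434591-37434809, plus strand: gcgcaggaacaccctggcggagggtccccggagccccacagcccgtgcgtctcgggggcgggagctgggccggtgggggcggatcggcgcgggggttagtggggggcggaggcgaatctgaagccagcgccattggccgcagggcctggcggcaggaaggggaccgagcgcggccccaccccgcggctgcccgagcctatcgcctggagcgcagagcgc
Foxa2, chr2:148046970-148047219, minus strand: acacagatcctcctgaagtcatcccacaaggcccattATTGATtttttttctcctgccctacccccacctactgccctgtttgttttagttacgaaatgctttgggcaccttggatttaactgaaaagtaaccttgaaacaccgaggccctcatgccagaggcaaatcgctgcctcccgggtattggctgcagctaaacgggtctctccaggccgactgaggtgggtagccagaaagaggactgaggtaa
Nr0b2, chr4:133553126-133553375, plus strand: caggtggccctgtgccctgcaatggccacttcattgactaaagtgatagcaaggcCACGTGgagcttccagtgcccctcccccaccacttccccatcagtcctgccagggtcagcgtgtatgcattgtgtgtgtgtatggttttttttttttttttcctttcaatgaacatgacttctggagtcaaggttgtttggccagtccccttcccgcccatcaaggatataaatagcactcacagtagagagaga
Onecut1, chr9:74861671-74861920, plus strand: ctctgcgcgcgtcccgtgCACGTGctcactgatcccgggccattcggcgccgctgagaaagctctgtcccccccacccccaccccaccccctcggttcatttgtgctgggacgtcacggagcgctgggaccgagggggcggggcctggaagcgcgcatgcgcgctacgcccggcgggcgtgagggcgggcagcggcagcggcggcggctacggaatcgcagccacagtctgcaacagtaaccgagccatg
The windows shown end at the base before the GENCODE gene begins. None of these letters stood in the 219 bases shown for Hhex, which had a GC content of 77.2%, against a median of 52.4% over all 32851 promoter windows of 250 bases. The Foxa2 window held the ONECUT letters ATCAAT on the other strand, 213 bases before the start, as did 6.72% of all windows. The E-box CACGTG stood 195 bases before the start of Nr0b2 and 232 bases before that of Onecut1, and 6.02% of all windows held it. Of the members whose windows are not printed, Foxa3 and Cebpa had no match, Hnf4a had the ONECUT letters and the GATA letters (59 and 52 bases) before its upstream start and 2 HNF1 half-sites before its downstream start. Nr1h4 had the HNF4 core at 85, an HNF1 half-site at 40, AGGTCA at 214 and the GATA letters at 131 bases before its start. Another start of Foxa2 had an HNF1 half-site at 176 and the GATA letters at 183 bases before it. A match shows only that the letters are present.

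Each library held 24873817 to 44289343 counts, and no 2 of the 30 libraries were identical. Mtm1, the deleted gene, was at 12.5 to 18.9 CPM in the WT livers and 3.37 to 6.39 CPM in the Mtm1-/y livers. Its genotypes did not overlap in any of the 4 tissues. In the liver its log2 fold change was -1.60 (SE 0.23, edgeR adjusted p = 0.365, DESeq2 adjusted p = 1.23e-06). In this tissue edgeR's adjusted p thus did not pass even for the deleted gene. Serum albumin (Alb), the main product of hepatocytes, marked the liver libraries, at 87697 to 121750 CPM. The Mtm1-/y liver 2 stood apart from the other 6 livers. Its 10 Kupffer cell and macrophage markers summed to 66.9 CPM against 223 to 317 CPM in the others, its 8 vascular endothelial markers to 92.8 CPM against 137 to 162 CPM, and its 10 striated muscle genes to 97.3 CPM against 8.45 to 28.9 CPM. Dbp, an output gene of the circadian clock, was at 108 CPM in this liver and at 0.810 to 11.3 CPM in the others. The Mtm1-/y livers 2, 3 and 4 also stood together in the order of the table's columns, at columns 27 to 29, while the Mtm1-/y liver 1 stood at column 4 beside the 3 WT livers. Next to those livers, at column 30, stood the Mtm1-/y diaphragm 4, apart from the other diaphragms at columns 13 to 18. The part of this position in the diaphragm values was not tested. The labels give no batch. Transcripts of the cardiac myosin Myh6 were at 1.42 to 1.99 CPM in those 3 livers and at most 0.129 CPM in the 3 WT livers and the Mtm1-/y liver 1.

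In the liver, Hhex and Foxa2 were higher and Nr0b2 was lower in Mtm1-/y than in WT libraries at an unadjusted p under 0.05. No member passed edgeR's test after adjustment, and neither did the deleted Mtm1. Hhex was at 12.8, 34.8 and 25.6 CPM in the WT livers 1, 2 and 3. In the Mtm1-/y livers 1, 2, 3 and 4 it was at 30.0, 86.8, 110 and 90.9 CPM. The Mtm1-/y livers 2 to 4 were all above every other liver, whereas the Mtm1-/y liver 1 lay inside the WT range. The means were 24.4 ± 11.03 CPM (SD, n = 3) and 79.3 ± 34.4 CPM (SD, n = 4), and the log2 fold change was 1.70 (SE 0.46, edgeR adjusted p = 0.969). DESeq2, the tool of the study, called Hhex in the liver (log2 fold change 1.71, SE 0.41, adjusted p = 0.0262), where it called 0.0782% of the genes it tested. With the column position added to the edgeR model, which leaves the Mtm1-/y liver 1 as the library that carries the genotype comparison, the log2 fold change of Hhex was 0.30 (SE 0.45). Genotype and column position therefore cannot be told apart for the livers 2 to 4.

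Foxa2 was at 10.2, 8.32 and 9.59 CPM in the WT livers and at 10.7, 15.3, 17.9 and 14.7 CPM in the Mtm1-/y livers 1 to 4. All 4 Mtm1-/y livers were above the 3 WT livers, the Mtm1-/y liver 1 by 10.7 against 10.2 CPM. The log2 fold change was 0.64 (SE 0.18, edgeR adjusted p = 0.969, DESeq2 adjusted p = 0.269), and it was 0.19 (SE 0.20) with the column position in the model.

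Nr0b2, the FXR-induced repressor, went the other way. It was at 57.1, 73.7 and 69.2 CPM in the WT livers. The Mtm1-/y livers 1 to 4 had 26.7, 6.64, 45.4 and 27.1 CPM. Every Mtm1-/y liver was below every WT liver, including the Mtm1-/y liver 1, and the lowest value was in the Mtm1-/y liver 2, the library that stood apart. The log2 fold change was -1.33 (SE 0.48, edgeR adjusted p = 0.969, DESeq2 adjusted p = 1), and without the Mtm1-/y liver 2 it was -1.01. With the column position in the model it was -1.32 (SE 0.84), from the Mtm1-/y liver 1 alone against the WT livers. Genotype and column position cannot be told apart for the Mtm1-/y livers 2 to 4 here either.

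Among the 14305 genes tested in the liver, edgeR called 0% by its adjusted p, with or without the fold threshold, and 4.24% had an unadjusted p under 0.05, against 3 of the 8 members. The study had already reported Hhex as changed in these livers, and the members were chosen with earlier results known. The 3 of 8 is therefore a description and not a test of the members. Libraries of the genotypes did not overlap for 2 of the 8 members (Foxa2 and Nr0b2) and for 6.09% of all genes tested. In an exact permutation test of the mean log2(CPM + 1) over the 35 possible groupings (two-sided), Foxa2 and Nr0b2 each gave p = 0.0571, the smallest that 3 livers against 4 allow, and Hhex gave p = 0.114. Adjusted over the 8 members, these were 0.228, 0.228 and 0.304. The liver is a mixture of cells, and in these bulk samples fewer cells of a type and less RNA per cell cannot be told apart.

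The other 5 members overlapped between the genotypes, each at an adjusted p of at least 0.969. Hnf4a was at 882, 722 and 669 CPM in WT and 953, 865, 712 and 720 CPM in Mtm1-/y livers, a log2 fold change of 0.10 (SE 0.15). Foxa3 was at 62.3, 60.8 and 68.3 CPM in WT and 70.3, 41.8, 45.8 and 60.2 CPM in Mtm1-/y livers, a log2 fold change of -0.23 (SE 0.18). The Mtm1-/y livers 2 to 4 were the 3 lowest of the 7 for Foxa3, the reverse of their place for Hhex, and the Mtm1-/y liver 1 was the highest. Nr1h4, the bile acid receptor gene, was at 126, 108 and 137 CPM in WT and 113, 169, 111 and 126 CPM in Mtm1-/y livers, a log2 fold change of 0.07 (SE 0.17). Cebpa was at 258, 161 and 160 CPM in WT and 206, 384, 179 and 196 CPM in Mtm1-/y livers, and its log2 fold change of 0.32 (SE 0.29) was 0.00 without the Mtm1-/y liver 2. Both Nr1h4 and Cebpa had their highest value in that library.

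Onecut1 varied more between livers than any other member, and not with the genotype. It was at 11.8, 0.742 and 8.46 CPM in the WT livers and at 7.11, 0.578, 20.1 and 11.9 CPM in the Mtm1-/y livers. The WT liver 2 and the Mtm1-/y liver 2, with 23 and 16 counts, were far below the other 5 livers, and the highest liver was 34.8-fold above the lowest. The same ratio was 11.1 for Nr0b2, 8.56 for Hhex, 2.39 for Cebpa, 2.15 for Foxa2 and 1.43 for Hnf4a. The log2 fold change of Onecut1 was 0.50 with an SE of 0.99. Onecut2, its paralog, was at 66.7 to 81.3 CPM in the WT and 60.0 to 106 CPM in the Mtm1-/y livers, and it was highest in the Mtm1-/y livers 2 and 4. Onecut2 was named after its values were seen.

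**Figure D1:**
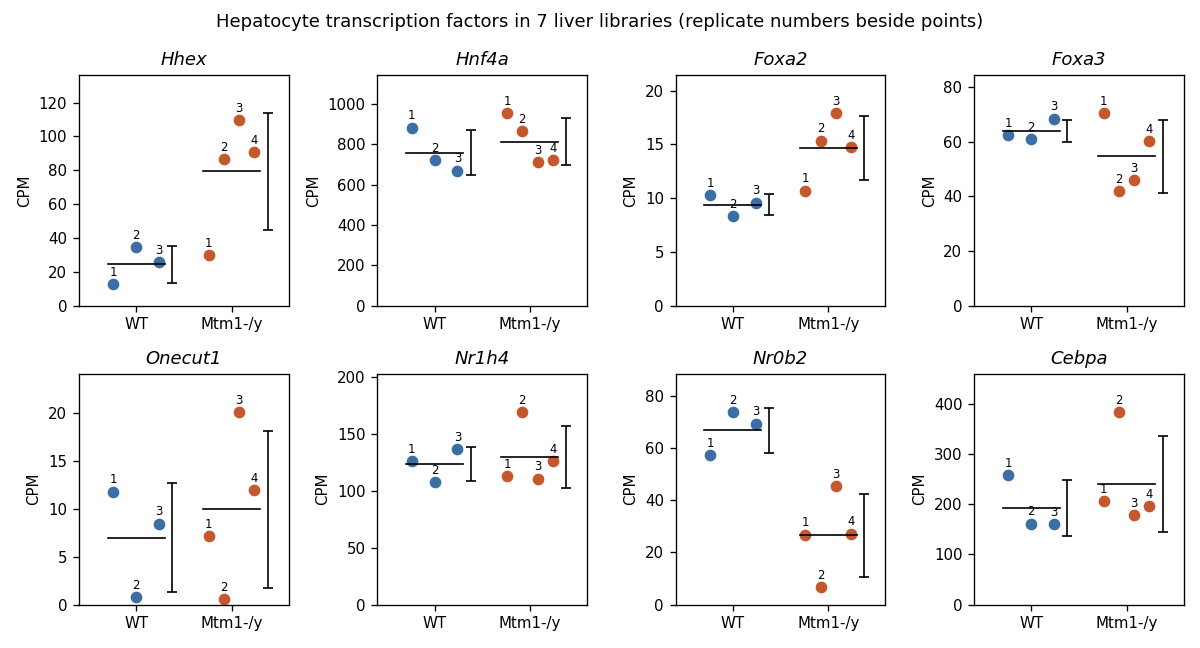
CPM (vertical axes, from 0) of the 8 members in the 3 WT and 4 Mtm1-/y livers, with replicate numbers; lines are means and bars SD. Hhex was at 86.8 to 110 CPM in the Mtm1-/y livers 2 to 4 and at 12.8 to 34.8 CPM in all others, while Nr0b2 was lower in every Mtm1-/y liver.

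**Figure D2:**
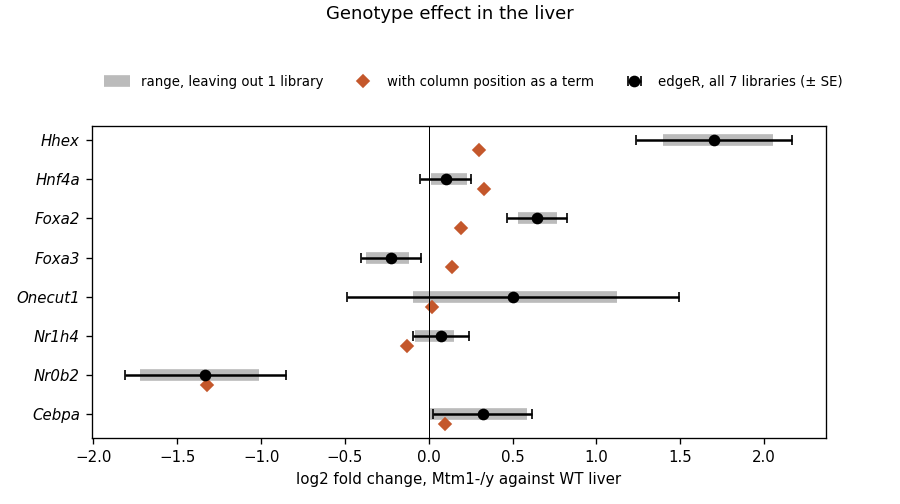
Log2 fold change of each member in the liver (horizontal axis; points with SE from all 7 libraries), the range when 1 library is left out (grey) and the value with the column position as a term (diamonds). With that term each value rests on the Mtm1-/y liver 1 alone against the 3 WT livers, and it was 0.30 for Hhex and -1.32 for Nr0b2, against 1.70 and -1.33 without it.

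Per length, Hnf4a was the most abundant member in WT liver, at 410 ± 71.0 TPM (SD, n = 3), above every value of the next gene. Cebpa (192 ± 59.3 TPM), Nr0b2 (154 ± 20.1 TPM) and Nr1h4 (140 ± 12.7 TPM) followed, and each overlapped its neighbour in this order. Foxa3 (81.6 ± 1.79 TPM) stood between these and the 3 least abundant members, Hhex (12.6 ± 5.84 TPM), Foxa2 (10.3 ± 1.07 TPM) and Onecut1 (4.41 ± 3.62 TPM). Hhex and Foxa2 overlapped, and Onecut1 was below every Foxa2 value. In Mtm1-/y liver the order was Hnf4a (428 ± 72.5 TPM, SD, n = 4), Cebpa (230 ± 81.6 TPM), Nr1h4 (143 ± 24.5 TPM), Foxa3 (68.6 ± 19.8 TPM), Nr0b2 (59.8 ± 35.1 TPM), Hhex (39.4 ± 16.5 TPM), Foxa2 (15.6 ± 2.74 TPM) and Onecut1 (6.16 ± 4.97 TPM). Nr0b2 thus came behind Hnf4a and Cebpa in WT liver, and also behind Nr1h4 and Foxa3 in Mtm1-/y liver, where its values overlapped those of Foxa3 and of Hhex.

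The genes whose pattern over the 7 livers was most like that of Hhex, among the 9295 genes that averaged 5 CPM or more, were Slc35f5 (Pearson r = 0.993), Itfg1 (0.988), Ugt1a9 (0.987), Nectin3 (0.982), Foxa1 (0.981) and 2610001J05Rik (0.979), a description of 7 libraries that share the groups and the column order. Ugt1a9, a glucuronosyltransferase that conjugates drugs, was at 153 to 184 CPM in WT and 196 to 265 CPM in Mtm1-/y livers. Foxa1, another forkhead pioneer factor of the liver, was at 7.42 to 9.94 CPM in WT and 8.84 to 14.0 CPM in Mtm1-/y livers, a log2 fold change of 0.49 (edgeR adjusted p = 0.969). All 6 spanned a narrower range than Hhex. Over the 7 livers Hhex followed Foxa2 (r = 0.83, Spearman's rho = 0.71) and ran against Foxa3 (r = -0.71, rho = -0.75), and Nr0b2 ran against Cebpa (r = -0.83, rho = -0.75), given as a description.

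The genes these factors are known to regulate were read from lists of pathway genes. In the liver edgeR found none of the listed genes to rise or fall after adjustment. Of 18 known targets of Hnf4a, such as the apolipoprotein gene Apoa1 and the transthyretin gene Ttr, 0 passed an unadjusted p under 0.05 with edgeR and 0 passed DESeq2, and the median log2 fold change was 0.06 against 0.01 over all genes. Ttr was at 8927 to 9783 CPM in WT and 8092 to 9052 CPM in Mtm1-/y livers. Apoa1 was lower in every Mtm1-/y liver, at 7293 to 8868 CPM against 8893 to 9040 CPM (log2 fold change -0.21, SE 0.12, edgeR adjusted p = 0.969). Of 17 tested genes of bile acid synthesis and transport, the pathway that Nr1h4 and Nr0b2 control, 1 had an unadjusted p under 0.05 with edgeR, 0 passed DESeq2, and the median was 0.02. Cyp7a1, the rate-limiting enzyme that SHP represses, was at 26.3 to 62.7 CPM in WT and 32.9 to 110 CPM in Mtm1-/y livers, with a log2 fold change of 0.39 (SE 0.44) and overlapping groups. Cyp8b1, another SHP target, was at 295.5 to 370 CPM in WT and 242 to 430 CPM in Mtm1-/y livers. The bile salt export pump Abcb11 was at 990 to 1117 CPM in WT and 698 to 1372 CPM in Mtm1-/y livers, and the bile acid uptake carrier Slco1b2 at 1045 to 1180 CPM and 1058 to 1655 CPM.

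Of 10 targets of Foxa and C/EBP factors, 2 had an unadjusted p under 0.05 with edgeR, and both were lower in every Mtm1-/y liver than in every WT liver. Over all genes tested in the liver, 4.24% had such a p and 6.09% had groups that did not overlap. Tat, tyrosine aminotransferase, was at 2857 to 3321 CPM in WT and 1523 to 2069 CPM in Mtm1-/y livers (log2 fold change -0.78, SE 0.14, edgeR adjusted p = 0.505, DESeq2 adjusted p = 0.000341). Pck1, the gatekeeping enzyme of gluconeogenesis, was at 4349 to 5327 CPM and 3100 to 3773 CPM (log2 fold change -0.44, SE 0.12, edgeR adjusted p = 0.969, DESeq2 adjusted p = 0.186). Of 24 other hepatic transcription factors, 5 had an unadjusted p under 0.05 with edgeR, against 4.24% of all genes tested. Among the 24, the log2 fold change was above 0 for 11, and the median was -0.03. Only Klf15 and Cebpb of these 5 are described here. Klf15, a glucocorticoid-induced factor of amino acid catabolism, was at 231 to 266 CPM in WT and 135 to 175 CPM in Mtm1-/y livers (log2 fold change -0.67, SE 0.12, edgeR adjusted p = 0.505, DESeq2 adjusted p = 0.00117), and its groups did not overlap. Cebpb, the paralog of Cebpa that acts in the acute phase, was at 11.5 to 20.04 CPM and 4.91 to 9.02 CPM (log2 fold change -1.09, SE 0.27, edgeR adjusted p = 0.969, DESeq2 adjusted p = 0.0653), also without overlap. Cyp7a1, Cyp8b1, Tat, Klf15 and Cebpb were named after their values were seen. DESeq2's adjusted p passed for 0.163% of the genes it tested in the liver, and Hhex was the 1 member among them.

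Cells other than hepatocytes can carry Hhex, and their markers were read in the same livers. Of 7 markers of sinusoidal endothelium and 8 of vascular endothelium, 0 had an unadjusted p under 0.05 with edgeR, 0 passed DESeq2, and the sinusoidal sum was 305 to 346 CPM in WT and 222 to 347 CPM in Mtm1-/y livers. Of 5 tested cholangiocyte markers 0 had an unadjusted p under 0.05, and their sum was 37.5 to 48.6 CPM in WT and 37.3 to 99.3 CPM in Mtm1-/y livers, highest in the Mtm1-/y liver 3, which also had the most Hhex and Onecut1. The 12 hepatocyte markers summed to 155958 to 172463 CPM in WT and 164290 to 193002 CPM in Mtm1-/y livers. The 10 macrophage and Kupffer cell markers had a median log2 fold change of -0.58, with 0 at an unadjusted p under 0.05 and 0 by DESeq2. Their sum was lowest in the Mtm1-/y livers 2, 3 and 4, at 66.9, 223 and 232 CPM, where Hhex was highest, and it was 309 CPM in the Mtm1-/y liver 1 and 281 to 317 CPM in WT livers. Of 9 tested striated muscle genes 4 had an unadjusted p under 0.05 with edgeR, and the median log2 fold change was 1.09. DESeq2 found 2 to rise, Myh6 (DESeq2 adjusted p = 0.0414) and Myl2 (0.0247). Both were highest in the Mtm1-/y livers 2 to 4, where Hhex was highest. The 10 listed muscle genes summed to 97.3, 12.5 and 8.45 CPM in the Mtm1-/y livers 2, 3 and 4. Their sum was 28.9 CPM in the Mtm1-/y liver 1 and 16.7 to 21.95 CPM in WT livers, above the Mtm1-/y livers 3 and 4. Of 11 VEGF and angiopoietin genes, 0 passed in the liver, and Vegfa was at 156 to 163 CPM in WT and 144 to 166 CPM in Mtm1-/y livers. The part of these cells and of the clock genes in the values of the members was not tested.

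Across tissues, WT liver had more of all 8 members than WT gastrocnemius and WT heart, and more of 7 than WT diaphragm. edgeR called genes higher in liver for 27.5% of the genes tested against gastrocnemius, 24% against heart and 20.1% against diaphragm. The member not called against diaphragm was Onecut1 (log2 difference 2.59, SE 1.12, adjusted p = 0.0673). The count of 7 fell to 4 with the replicate number as a block, where Hnf4a, Foxa3 and Nr1h4 were no longer called (adjusted p = 0.0793, 0.0779 and 0.0597). It was also 4 without the WT liver 1 and ran from 4 to 8 over all libraries left out in turn. Hhex had the smallest difference from gastrocnemius, a log2 difference of 4.82 (SE 0.34, adjusted p = 2.58e-07), and from heart, 3.23 (SE 0.37, adjusted p = 5.63e-05). In these muscles 4 members were barely detected: Hnf4a had at most 22 counts, Foxa3 at most 5, and Foxa2 and Onecut1 at most 2 counts in any gastrocnemius or heart library.

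Hhex was detected in all 30 libraries. In TPM it was at 12.6 ± 5.84 (SD, n = 3) in WT liver, 4.37 ± 3.13 (SD, n = 4) in diaphragm, 2.21 ± 0.98 (SD, n = 4) in heart and 0.472 ± 0.119 (SD, n = 4) in gastrocnemius. The ranges of diaphragm and heart overlapped, as did those of liver and diaphragm, and every gastrocnemius value was below every heart value. Alb in the hearts was at most 0.107% of its mean in WT liver, and Hhex there was 12.7% to 24.9% of its own.

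**Figure D3:**
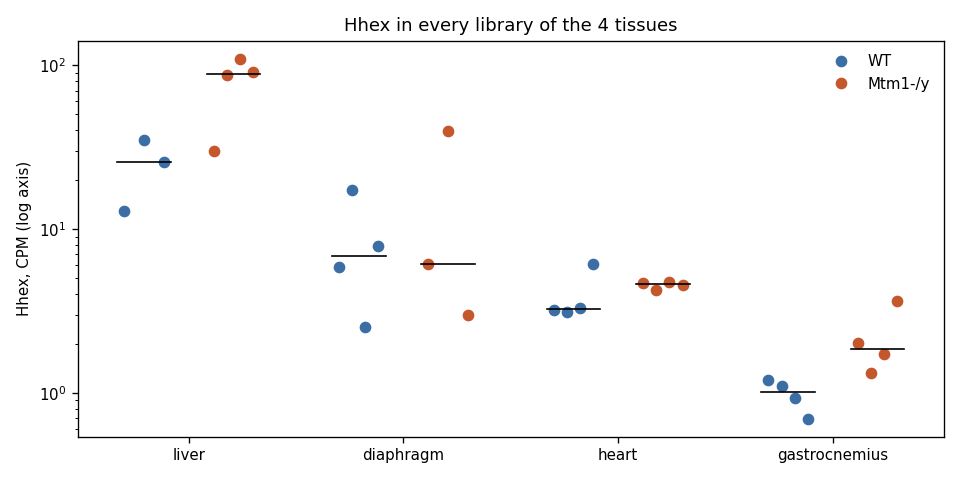
Hhex in CPM (log axis) in each library of the 4 tissues, by genotype; lines are medians. In the gastrocnemius all 4 Mtm1-/y libraries (1.33 to 3.66 CPM) were above the 4 WT libraries (0.697 to 1.196 CPM).

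In the gastrocnemius, 2 members passed the filter on low counts, Hhex and Cebpa, and both rose. Hhex was at 1.196, 1.101, 0.928 and 0.697 CPM in WT and at 2.01, 1.33, 1.72 and 3.66 CPM in Mtm1-/y libraries, from 22 to 136 counts each. The groups did not overlap, as for 30.7% of all genes tested there, and the log2 fold change was 1.15 (SE 0.33, edgeR adjusted p = 0.0251, DESeq2 adjusted p = 0.0076). The call was lost when WT 2, 3 or 4 was left out (adjusted p = 0.0537, 0.0605 and 0.0699), and the log2 fold change was 0.80 when Mtm1-/y 4 was left out. edgeR called 6.63% of the genes tested in this muscle, 14.1% rose and 14.9% fell by the adjusted p alone. Of 10 macrophage markers 6 were tested, of which 5 rose (C1qb by a log2 fold change of 1.26, adjusted p = 0.00114) and 1, Timd4, fell, and their sum was 23.7 to 44.7 CPM in WT and 62.0 to 77.7 CPM in Mtm1-/y libraries. The Kupffer cell gene Marco was at 0 in WT, and Clec4f was at most 0.0834 CPM. Of 8 vascular endothelial markers 2 fell, Tie1 and Cdh5, and their sum was 447 to 567 CPM in WT and 337 to 422 CPM in Mtm1-/y libraries. The part of these cells in the level of Hhex was not tested.

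Hhex in the gastrocnemius ran most closely with Htra4 (r = 0.988), Numbl (0.976), Cwc25 (0.970), Kcnt2 (0.967), Dact1 (0.947) and Ptgir (0.946) over the 8 libraries, among the 13116 genes that averaged 1 CPM or more. Of these, Htra4 (log2 fold change 1.04, edgeR adjusted p = 0.0204), Numbl (0.62, 0.0179), Dact1 (0.58, 0.0462) and Ptgir (0.71, 0.0439) rose. None of these 6 was among the genes nearest to Hhex in the liver. The genes of VEGF and angiopoietin signalling, where Hhex is known to act in endothelium, had 6 of 11 members that fell and 0 that rose, with a median log2 fold change of -0.44 against 0.02 over all genes. Of all genes tested in this muscle, 14.1% rose and 14.9% fell by the adjusted p alone, the shares to set beside each list here. Flt1, a VEGF receptor, fell by 0.79 on the log2 scale (adjusted p = 8.2e-05), Vegfa by 0.52 (adjusted p = 0.0053), Flt4 by 0.59 (adjusted p = 0.00544) and Tie1 by 0.52 (adjusted p = 0.00504). Of 17 tested hepatic transcription factors outside the 8 members, 3 fell (Ppara, Rxra and Nr1i3) and 1 rose (Xbp1), counts not far from those shares. Of 11 tested bile acid genes 4 fell and 0 rose, led by Fgfr4 (log2 fold change -1.29, adjusted p = 0.00033) and Abcb4 (-0.72, adjusted p = 0.000333). Of 10 tested targets of Hnf4a 1 fell, Nr1i3, and of 6 tested targets of Foxa and C/EBP factors Tat fell and Pck1 rose. Hepatocyte markers were lower in the same muscles: 2 of 12 fell (Apoh and Ahsg), 10 had an unadjusted p under 0.05, the median log2 fold change was -1.86, and the sum was 33.9 to 123 CPM in WT and 6.05 to 62.7 CPM in Mtm1-/y libraries. How many of all genes in this muscle had an unadjusted p under 0.05 was not computed. Alb was at 17.9 to 61.0 CPM in WT and 2.39 to 34.0 CPM in Mtm1-/y libraries. The part of liver RNA in the values of these lists was not tested.

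Cebpa changed in the gastrocnemius and had the opposite sign in the heart. In the gastrocnemius it was at 5.26, 4.07, 4.13 and 5.26 CPM in WT and at 12.6, 7.68, 10.1 and 11.9 CPM in Mtm1-/y libraries. The groups did not overlap, and the log2 fold change was 1.18 (SE 0.17, edgeR adjusted p = 0.00098). In 1 fit of all 30 libraries the fold changes of Cebpa and Hhex in this muscle were 1.16 and 1.14 and neither was called (adjusted p = 0.104 and 0.274). In the heart it was at 14.0, 6.15, 7.14 and 12.4 CPM in WT and at 4.45, 5.97, 3.62 and 5.83 CPM in Mtm1-/y libraries. Every Mtm1-/y heart was below every WT heart, by as little as 6.15 against 5.97 CPM, as for the 4.26% of genes in the heart whose groups did not overlap. The heart's log2 fold change was -0.998 (SE 0.29, edgeR adjusted p = 0.546, DESeq2 adjusted p = 0.0973). edgeR called 0.00656% of the genes tested in the heart, by the adjusted p with or without the fold threshold. In 1 fit of both tissues, a comparison added after the values were seen, the genotype effect on Cebpa was 2.15 lower on the log2 scale in the heart than in the gastrocnemius (SE 0.35, adjusted p = 0.00109), where 19.8% of the genes tested passed. This fit took the libraries as independent and held no block for the mouse. The labels do not say whether the 2 tissues came from the same mice.

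The markers of white adipocytes, which express Cebpa, moved in the same directions. In the gastrocnemius, where 14.1% of all genes tested rose, 5 of the 6 markers rose, such as Adipoq (log2 fold change 1.502, adjusted p = 0.0118) and Retn (1.80, adjusted p = 0.00774). Their sum was 19.1 to 88.2 CPM in WT and 74.5 to 157 CPM in Mtm1-/y gastrocnemius. In the heart the sum was 34.9 to 132 CPM in WT and 5.48 to 14.2 CPM in Mtm1-/y libraries, and 0 of 6 markers passed edgeR's test after adjustment, 6 had an unadjusted p under 0.05, and all 6 fell by DESeq2. How many of all genes in the heart had an unadjusted p under 0.05 was not computed. The 2 WT hearts with the most adipocyte transcripts, 1 and 4, also had the most Cebpa. The part of adipocytes in the level of Cebpa was not tested.

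**Figure D4:**
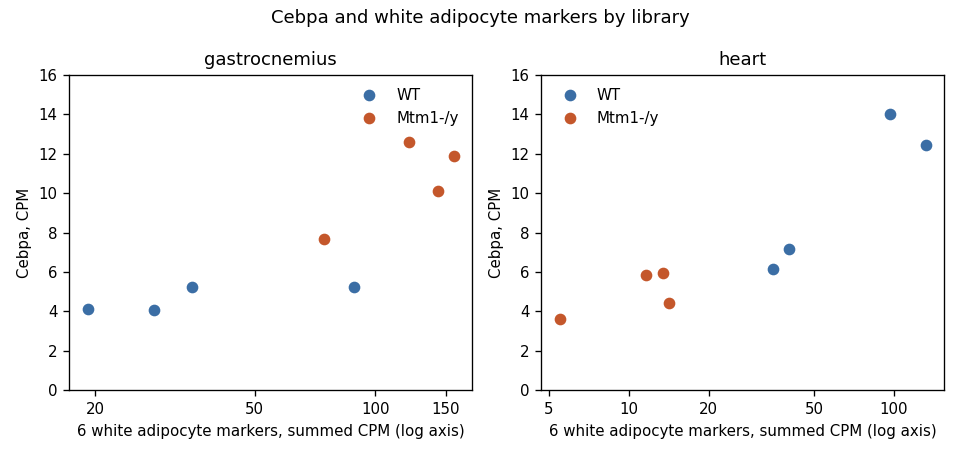
Cebpa (vertical axis, CPM) against the summed CPM of 6 white adipocyte markers (log axis), 1 point a library, in the gastrocnemius and the heart. The Mtm1-/y points lay above WT in the gastrocnemius (7.68 to 12.6 against 4.07 to 5.26 CPM) and below WT in the heart (3.62 to 5.97 against 6.15 to 14.0 CPM).

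In the heart, Hhex, Nr1h4, Nr0b2 and Cebpa passed the filter on low counts, and none of them passed the test. Hhex was at 3.22, 3.11, 3.28 and 6.08 CPM in WT and at 4.70, 4.23, 4.75 and 4.55 CPM in Mtm1-/y hearts, and the effect on the log2 scale was 0.22 (SE 0.23, adjusted p = 0.693). The Mtm1-/y hearts were above 3 of the 4 WT hearts and below WT 4. Nr0b2 had 160 to 308 counts in the hearts although Hnf4a, Foxa2 and Onecut1 were nearly absent there. It was at 10.2, 9.76, 10.1 and 6.81 CPM in WT and 8.13, 10.7, 7.25 and 6.02 CPM in Mtm1-/y hearts, 9.03% to 16.1% of its mean in WT liver (log2 fold change -0.20, SE 0.20, adjusted p = 0.677). Nr1h4 was at 0.450 to 1.30 CPM in WT and 0.614 to 0.765 CPM in Mtm1-/y hearts, from 12 to 41 counts, with an effect of -0.32 (SE 0.34, adjusted p = 0.703).

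All 8 members were tested in the diaphragm, where liver transcripts varied widely between libraries and Hnf4a varied with them. Alb was at 27.9%, 18.6%, 0.309% and 20.2% of its mean in WT liver in the WT diaphragms 1 to 4, and at 1.77%, 35.5% and 0.593% in the Mtm1-/y diaphragms 1, 2 and 4. Hnf4a was at 31.7%, 15.0%, 0.327% and 18.2% of its mean in WT liver in the same WT diaphragms and at 2.35%, 32.9% and 0.566% in the Mtm1-/y diaphragms. Its share was 0.809 to 1.33 times that of Alb in every library. Nr1h4 kept to 0.855 to 1.19 times the Alb share, and Nr0b2 to 0.892 to 1.17 times, in the 4 libraries with the most Alb (WT 1, 2 and 4 and Mtm1-/y 2). In WT 3, Mtm1-/y 1 and Mtm1-/y 4, with little Alb, Nr1h4 was at 3.68, 2.09 and 2.10 times and Nr0b2 at 1.28 to 4.91 times the Alb share. In those 3 libraries Foxa3 was at 0.331 to 2.37 times, Foxa2 at 2.72 to 3.51 times and Cebpa at 9.36 to 28.2 times the Alb share. Of the 8 members, Hnf4a thus stayed nearest to Alb over the 7 diaphragms. The Mtm1-/y effects were small against their errors for these genes, as for Hnf4a (log2 fold change -0.45, SE 1.55, adjusted p = 0.968), and edgeR called 0.0119% of the genes tested there, by the adjusted p with or without the fold threshold. Groups did not overlap for 0 of the 8 members and 9.96% of all genes in the diaphragm.

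Hhex did not keep to the Alb share. It was at 5.89, 17.3, 2.51 and 7.87 CPM in the WT diaphragms and 6.15, 39.8 and 2.98 CPM in the Mtm1-/y diaphragms 1, 2 and 4. In the Mtm1-/y diaphragm 2 this was 163% of its mean in WT liver, 4.60 times the Alb share, and Onecut1 (143%) and Foxa2 (84.0%) also exceeded the Alb share of 35.5%, whereas Foxa3 (28.2%), Nr1h4 (30.4%) and Nr0b2 (36.4%) did not depart from it as far. Per 1000 CPM of Alb, a measure added after the values were seen, Hhex was at 1.18 CPM in this library and at 0.978 CPM in the WT diaphragm 2, against 0.139 to 0.397 CPM in the WT livers and 0.246 to 0.934 CPM in the Mtm1-/y livers. In the diaphragms with the least liver RNA, WT 3 and Mtm1-/y 4, Hhex was at 2.51 and 2.98 CPM, near its level in the heart. Its log2 fold change was 0.95 (SE 0.96, adjusted p = 0.816) with all 7 diaphragms and -0.88 without the Mtm1-/y diaphragm 2. Cebpa was at 109.6, 51.9, 16.8 and 99.5 CPM in WT and 31.9, 87.7 and 11.1 CPM in Mtm1-/y diaphragms, 5.74% to 56.8% of its mean in WT liver, and the white adipocyte sum was 168 to 1665 CPM.

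**Figure D5:**
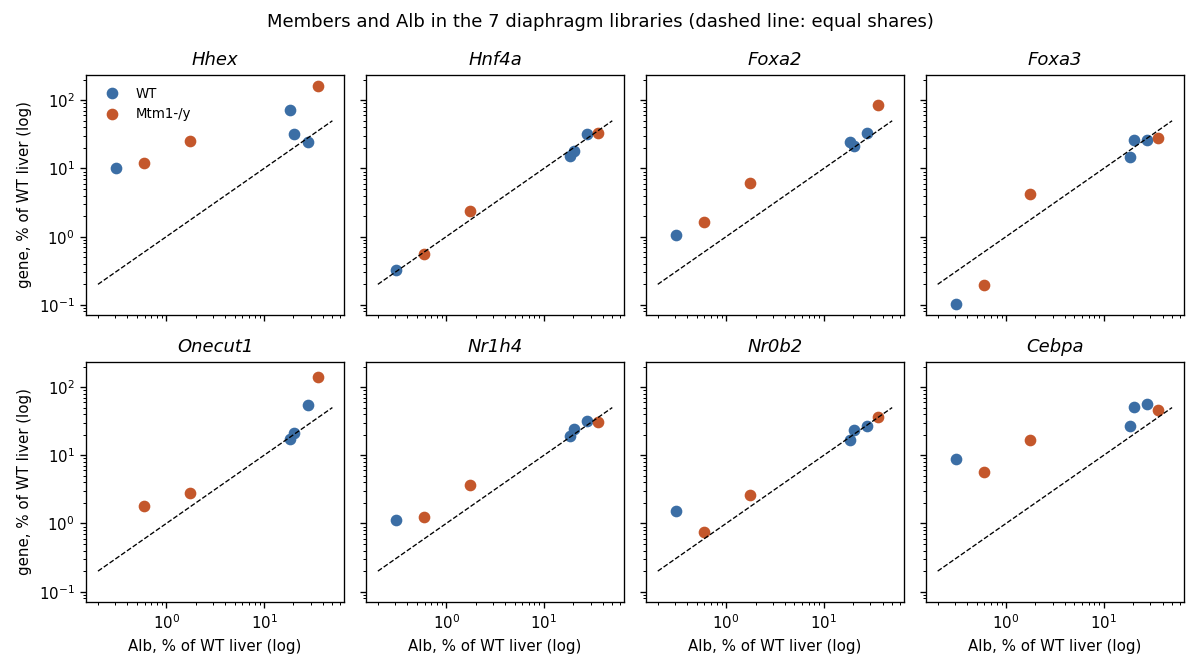
Each member (vertical axes) against Alb (horizontal axes), both as percent of the mean in WT liver on log axes, in the 4 WT and 3 Mtm1-/y diaphragms; the dashed line marks equal shares, and the WT diaphragm 3 is left out for Onecut1, which was at 0 there. Hnf4a lay along the line in all 7 libraries. Hhex and Nr1h4 each lay above it in 6 of 7, and Foxa2 and Cebpa in all 7, at no less than 1.07 and 1.28 times the Alb share.

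The genotype effect in the liver was compared with that in each other tissue in 1 fit of both tissues. These fits took the libraries as independent, though the labels do not say whether tissues came from the same mice. With genotype and replicate number together as a block, 212 genes passed against the gastrocnemius, where 1090 passed without it. For Hhex the liver effect was 0.58 higher on the log2 scale than that in the gastrocnemius (SE 0.63, adjusted p = 0.65), 0.83 higher than in the diaphragm (SE 1.15, adjusted p = 1) and 1.503 higher than in the heart (SE 0.55, adjusted p = 0.744). None of the 8 members passed any of these 3 edgeR tests, in which 6.34%, 0% and 0% of the genes tested passed. At an unadjusted p under 0.05 there were 1 member against gastrocnemius (Cebpa), 0 against diaphragm and 3 against heart (Hhex, Hnf4a and Cebpa), where 22.3%, 5.12% and 5.56% of all genes tested had such a p. DESeq2 passed 0 members against gastrocnemius and diaphragm, where it passed 11.9% and 0.0833% of the genes that it tested. It passed 1 member, Hnf4a, against the heart (adjusted p = 0.00516), where it passed 1.35% of the genes that it tested. It gave an adjusted p to only 4900 genes there, against 16133 for the gastrocnemius and 18014 for the diaphragm. Foxa2, Onecut1 and Nr0b2 had none against the heart, and Hnf4a had none against the diaphragm, so DESeq2 left these untested. Hnf4a had 0 to 7 counts in the WT and 6 to 22 counts in the Mtm1-/y hearts. Hepatocyte markers moved with it, with Alb at 0.951 to 25.1 CPM in WT and 27.9 to 102 CPM in Mtm1-/y hearts, and 10 of 12 markers at an unadjusted p under 0.05 in the heart (0 rose by edgeR's adjusted p, 3 by DESeq2, median log2 fold change 2.23). The share of all genes in the heart with such a p was not computed. The part of liver RNA in the Hnf4a value was not tested. For Cebpa the liver effect was 0.83 lower than that in the gastrocnemius (SE 0.36, adjusted p = 0.192) and 1.32 higher than in the heart (SE 0.44, adjusted p = 0.687).

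Hnf4a overlaps the antisense gene Hnf4aos, which had at most 380 counts in a liver library, and Cebpa overlaps the antisense gene Gm45091, with at most 14. The libraries were stranded, but whether counting used the strand is not given in the sources used here.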

How the data were processed

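RNA from whole liver, gastrocnemius, diaphragm and heart was sequenced as stranded polyA libraries (single-end 50-base reads). Per the labels and the study's methods, the authors demultiplexed with bcl2fastq 2.17.1.14, trimmed with cutadapt 1.10, aligned to mm10 with STAR 2.5.3a and counted reads per gene with HTSeq 0.6.1p1, and the raw counts they deposited were used here. Groups came from the sample labels.

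Each tissue was fitted separately with edgeR 4.0.16 in R 4.3.3 (quasi-likelihood test, filterByExpr at a minimum count of 10, TMM, Benjamini-Hochberg adjustment over all genes tested, all two-sided). Differences between tissues were interaction terms in 1 fit of both. DESeq2 1.42.0 and limma 3.58.1 (voom with sample weights) were alternatives, beside another normalization, no filter, the replicate number as a block, all libraries in 1 fit and leaving out each library. The column position and the heart against gastrocnemius fit were added after the data were seen. TPM used exon lengths of GENCODE M21, and gene symbols were matched through a table of Ensembl identifiers. Counts were simulated from each fit's own dispersions, with changes put only into well-counted genes and no library set apart. For the liver comparison of 14305 genes edgeR recovered 99% of these 4-fold and 62% of these 2-fold changes, with 13 false calls. For the gastrocnemius, with 15456 genes, it recovered 100% and 91%, with 7 false calls. In the real livers edgeR gave the deleted Mtm1 an adjusted p of 0.365, so the simulated shares do not carry over to them.

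The members and all gene lists were chosen with earlier results of these data known. All members were described in every tissue. From each further list the text could name up to 4 genes with the smallest p among those at an adjusted p under 0.05, or the 2 most abundant where none passed, and it named the 6 genes most correlated with Hhex in liver and in gastrocnemius. Onecut2, Cyp7a1, Cyp8b1, Klf15, Cebpb, Dbp, Myh6, Myl2, Timd4, Marco, Clec4f and, in the liver, Tat were named after their values were seen. Library totals of 24873817 to 44289343 counts set the precision. Members left out by the filter are given by their counts.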

Additional observations from a re-analysis of the deposited data

Results flagged for a closer look

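In groups of 4 libraries, a value was set apart when its gap to the nearest other, divided by the whole range, exceeded Dixon's critical value at 95%. Of 32 member-by-group sets tested 4 were set apart, where chance gives about 5% of sets. Not every member was tested in every group. Sets with very few counts, such as Foxa2 in the WT gastrocnemius with at most 1 count, were not among the 32. The number set apart depends on which sets were tested. Hhex was at 6.08 CPM in the WT heart 4 against 3.11 to 3.28 CPM in the other 3 WT hearts, and without this heart its log2 fold change in the heart was 0.51. Nr0b2 was at 6.81 CPM in the same heart against 9.76 to 10.2 CPM in the others. This heart also had the highest white adipocyte sum of the hearts, 132 CPM. Cebpa was at 384 CPM in the Mtm1-/y liver 2 against 179 to 206 CPM in the other Mtm1-/y livers, in the library with the highest Dbp and the fewest macrophage transcripts. Hnf4a was at 0.388 CPM in the Mtm1-/y gastrocnemius 3, from 14 counts, against 0 to 0.0269 CPM in the others.

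The genotype effect on Cebpa differed between the heart and the gastrocnemius by -2.15 on the log2 scale (SE 0.35, edgeR adjusted p = 0.00109, DESeq2 adjusted p = 4.76e-07), in fits that took the libraries as independent. It was negative in the heart and positive in the gastrocnemius, with no overlap of the genotypes in either tissue, and the white adipocyte markers moved with it. Their part in the difference was not tested.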

How the results depend on the processing

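In the liver, DESeq2 called 1 member, Hhex (1.71), where edgeR called 0, and all other alternatives gave 0. With the column position as a term, which leaves the Mtm1-/y liver 1 alone against WT, Foxa3 turned to 0.14 and Nr1h4 to -0.13. Leaving out single livers moved Onecut1 from -0.092 to 1.12 and Nr1h4 from -0.081 to 0.15, both turning sign, and Hhex from 1.39 to 2.05, with its lowest adjusted p, 0.142, without the Mtm1-/y liver 1. In the gastrocnemius, 2 members were called, 1 to 2 with single libraries left out and 0 in 1 fit of all 30 libraries, where Hhex was 1.14 and Cebpa 1.16. Hhex ranged from 0.80 to 1.33 with single libraries left out.

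Replicate numbers are shared between genotypes, but the labels tie them to no litter or day, and same-numbered livers correlated at 0.423, -0.0142 and 0.235. Of these 3 pairs 2 correlated best with their own number. With the replicate block, 1 member, Cebpa, was called in the gastrocnemius and Hhex was not (1.07, adjusted p = 0.0662), and in the diaphragm Hhex was -0.021, Foxa2 -1.42 and Onecut1 -1.86. Against the WT diaphragm, 4 members were called with the replicate block, 7 without it, and 4 to 8 with single libraries left out, when Hhex ranged from 1.69 to 2.66.

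The diaphragm effects turned sign with the libraries included. Without single libraries Hhex ranged from -0.88 to 1.58, Hnf4a from -3.49 to 0.10, Foxa2 from -2.33 to 1.15, Onecut1 from -3.32 to 1.89 and Nr0b2 from -3.32 to 0.17, the lowest in each case without the Mtm1-/y diaphragm 2. With limma voom Hhex was -0.51, Foxa2 -1.76 and Onecut1 -2.22, and with a hepatocyte score as a covariate Foxa3 was 0.10. In the heart, limma voom gave Nr1h4 0.065. In the test of the liver effect against the heart DESeq2 passed 1 member, and edgeR passed 0 to 1 with single libraries left out (1 without the WT heart 1). Against the gastrocnemius it also passed 0 to 1 (1 without the Mtm1-/y liver 2 or the Mtm1-/y gastrocnemius 3). The cause of these changes was not tested. Of all values recomputed, 287 for the main comparisons and 447 for single members kept their direction and side of the threshold, or moved less than 1.5 times as counts, while 3 and 19 turned sign. Counts of the least expressed members limit the gastrocnemius and heart.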
